A study of Rattus norvegicus with 11 samples.

Results

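The 8 genes Hmgcs1, Sqle, Fdft1, Fdps, Lss, Cyp51, Dhcr7 and Insig1 belong to cholesterol synthesis and its control. They were taken by name from single-colour Agilent whole rat genome arrays, and they make up 8 of the 12362 gene names on the array and 13 of its 41012 non-control probes. Each array held RNA of the medial prefrontal cortex (mPFC) of 1 male rat, 4 months old. The 6 heroin rats had licked an empty spout for intravenous heroin in daily sessions on 14 days, spent 14 days drug-free in the home cage, and were killed after a 90-minute extinction session in which no drug came. The 5 saline rats were drug-naive yoked controls: the intake of a partner rat set the timing of their saline infusions, and they too had 14 days of abstinence and the extinction session. The groups therefore differ in the whole history of heroin intake and in control over the infusions, not in heroin given in the last session. The paper also reports more goal-directed spout licking by heroin than by saline rats in the extinction session. It proposes that this activity may in part have caused expression changes. These differences cannot be told apart here. The methods describe 12 arrays with 6 rats in each group, and a saline rat 1 was not analysed here. Transcript levels of these genes were compared between heroin and saline rats, and their covariation from rat to rat was measured.

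Cholesterol in the adult brain is made locally, because plasma lipoproteins do not cross the blood-brain barrier, and it goes into myelin, synaptic membranes and astrocyte-derived lipoproteins. The pathway runs from acetyl-CoA through mevalonate and the isoprenoids to squalene, which is oxidised, closed into lanosterol and trimmed to cholesterol. Most of its genes are driven by SREBP transcription factors, which are cut free from membranes when sterols run low, while Insig1 holds the SREBP escort Scap in the endoplasmic reticulum when sterols are plentiful and is itself a target of SREBP. In bulk tissue fewer cells of a type and less RNA per cell cannot be told apart.

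All 13 probes are 60 nucleotides long, and their positions are given in build rn3 as the array files state them. Sqle, Fdft1, Lss, Cyp51 and Dhcr7 had 1 probe each, on chromosomes 7, 15, 20, 4 and 1. Hmgcs1 had 2 probes on the plus strand of chromosome 2, 1 at chr2:51680037-51680096 and 1 at chr2:51682653-51682711, 2616 bases further along the gene. Fdps had 2 probes on the minus strand of chromosome 2. Insig1 had 4 probes on the minus strand of chromosome 4, and the brightest of them, at chr4:2577508-2577567, lay 784, 841 and 1193 bases closer to the 3' end than the other three. Exon and untranslated region limits of this build were not used here. The probe of Hmgcs1 nearer to the start of the gene is printed because it alone among the 13 passed the study's thresholds. It is also in the study's own list, which was drawn up on these arrays and is not independent evidence of its direction.
Hmgcs1 probe: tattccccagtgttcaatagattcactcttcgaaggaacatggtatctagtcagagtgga

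Sequence upstream of the RefSeq start was at hand for 6 of the 8 genes, in build GRCr8, and not for Sqle or Fdft1. Bases 250 to 61 before the start are printed for Hmgcs1 and Insig1, the genes with the largest changes given below. Capitals mark, on either strand, CCAAT boxes (CCAAT), GC boxes (GGGCGG) and the E-box CACGTG. The CCAAT box was found in this window of Hmgcs1, Fdps, Lss and Insig1 and in 27.4% of the 33469 windows of all promoters, and the GC box in 5 of the 6 genes, all but Dhcr7, and in 22.5% of windows. The E-box was found in Insig1 alone among the 6 and in 3.90% of windows. The core of the sterol regulatory element, searched as TCACNCCAC on both strands, was in 0.750% of windows and in none of the 6, which says only that these letters are not in this window. No motif overlapped another in the printed windows. These matches describe the sequence and are not sites shown by any measurement here.
Hmgcs1, chr2:53382054-53382243, plus strand: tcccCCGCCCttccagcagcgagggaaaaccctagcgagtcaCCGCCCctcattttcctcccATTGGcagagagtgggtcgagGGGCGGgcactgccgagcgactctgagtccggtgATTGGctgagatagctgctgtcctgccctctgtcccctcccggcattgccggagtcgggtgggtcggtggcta
Insig1, chr4:8057830-8058019, minus strand: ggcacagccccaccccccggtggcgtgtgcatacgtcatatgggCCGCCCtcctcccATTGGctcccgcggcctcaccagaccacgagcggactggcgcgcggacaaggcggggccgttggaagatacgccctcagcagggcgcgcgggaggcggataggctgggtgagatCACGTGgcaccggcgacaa

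Signals are given as multiples of the array's median signal over all non-control probes, after values below 5 were raised to 5. All 13 probes were scored well above background on all 11 arrays, and all were tested. On this scale the groups were not level as a whole. The median change over the 25555 tested probes was 0.18 on the log2 scale towards heroin, and 78.7% of them were higher in the heroin rats. After quantile normalization, which gives every array the same distribution of signals, the median change was 0.01 and 52.5% were higher. Each gene is therefore described on both scales, and its change is also given less the median of all tested probes. Unless stated, p-values are unadjusted and two-sided, from limma across all tested probes or from the exact permutation test over all divisions of the 11 rats into the group sizes, whose smallest possible p is 0.00216. After Benjamini-Hochberg adjustment in limma no tested probe fell below 0.263, and 4723 probes had an unadjusted p under 0.05.

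Hmgcs1 encodes the cytosolic synthase that joins acetyl-CoA to acetoacetyl-CoA at the entry of the pathway. Its brighter probe, the one towards the 3' end, read 135, 155, 166, 174 and 143 array medians in saline rats 2 to 6, and 169, 192 and 247 as the lowest, median and highest of the heroin rats. The groups overlapped in only 1 heroin rat and 1 saline rat, and heroin rat 6 was the highest of all. The change was 0.36 ± 0.13 on the log2 scale (SE, 6 against 5 rats), with an exact permutation p of 0.00649 and a limma p of 0.0138. Less the median of all tested probes it was 0.18, and after quantile normalization it was 0.12 ± 0.09 with a limma p of 0.200.

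The second probe of Hmgcs1 read 7.0, 6.69, 5.52, 8.98 and 7.63 array medians in saline rats 2 to 6, and 7.09, 11.3 and 13.5 as the lowest, median and highest of the heroin rats. Heroin rat 5 lay among the saline rats, and the other 5 heroin rats lay above all of them. The change was 0.61 ± 0.18 on the log2 scale, 1.53-fold, with a limma p of 0.00337, an adjusted limma p of 0.263 and an exact permutation p of 0.0130. It was past the study's thresholds, an unadjusted p under 0.02 and at least 1.4-fold, where 1.79% of all tested probes passed upwards. After quantile normalization the change was 0.39 ± 0.16 with a limma p of 0.0281, which is short of both thresholds. The log2 difference between the probes in the same rat averaged 0.26 more in heroin than in saline rats, with an exact permutation p of 0.208, so the larger change of the second probe did not exceed the spread between rats.

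Fdps makes farnesyl diphosphate, the isoprenoid from which sterols, dolichol and prenyl groups branch. Its brighter probe read 73.2, 65.6, 65.1, 81.4 and 74.8 array medians in saline rats 2 to 6, and 76.0, 88.6 and 94.6 as the lowest, median and highest of the heroin rats. Saline rat 5 was the one saline rat within the heroin range, and 5 of 6 heroin rats lay above every saline rat. The change was 0.28 ± 0.12 on the log2 scale with a limma p of 0.0319, and 0.33 ± 0.14 at the other probe with a limma p of 0.0288. Less the median of all tested probes these changes were 0.09 and 0.14, and after quantile normalization they were 0.01 ± 0.12 and 0.07 ± 0.13.

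Fdft1, squalene synthase, takes the first step that leads to sterols alone. It read 4.70, 3.57, 4.38, 5.82 and 4.72 array medians in saline rats 2 to 6, and 4.28, 5.54 and 6.01 as the lowest, median and highest of the heroin rats. The groups overlapped, with heroin rat 6 below 4 of the saline rats. The change of 0.24 ± 0.14 did not pass the test (limma p of 0.113). It was 0.06 less the median of all tested probes, and after quantile normalization it was 0.02 ± 0.13.

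Sqle, squalene epoxidase, puts oxygen on squalene and is a further control point of the pathway. It read 20.5, 21.0, 24.7, 28.5 and 23.7 array medians in saline rats 2 to 6, and 27.8, 29.9 and 31.9 as the lowest, median and highest of the heroin rats. The heroin rats were closely spaced, and only saline rat 5 reached their range. The change was 0.35 ± 0.12 on the log2 scale, with an exact permutation p of 0.00433 and a limma p of 0.0102. It was 0.17 less the median of all tested probes and 0.10 ± 0.09 after quantile normalization (limma p of 0.295).

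Lss closes oxidosqualene into the first sterol, lanosterol. It read 6.89, 7.70, 5.72, 6.32 and 5.56 array medians in saline rats 2 to 6, and 4.33, 6.37 and 8.81 as the lowest, median and highest of the heroin rats. The heroin rats spanned more than the whole saline range. Lss was the one gene of the 8 with no upward difference: its change was -0.01 ± 0.17 (limma p of 0.976), -0.19 less the median of all tested probes, and -0.23 ± 0.18 after quantile normalization (limma p of 0.229).

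Cyp51 removes a methyl group from lanosterol and Dhcr7 performs the last reduction on one of the routes to cholesterol. Cyp51 read 22.0, 33.5, 31.6, 37.1 and 27.6 array medians in saline rats 2 to 6, and 28.3, 33.6 and 44.8 as the lowest, median and highest of the heroin rats. Dhcr7 read 10.2, 9.48, 10.4, 12.6 and 8.45 array medians in saline rats 2 to 6, and 9.81, 12.4 and 13.1 as the lowest, median and highest of the heroin rats. The groups overlapped widely in each gene, and neither change passed the test. It was 0.22 ± 0.16 for Cyp51 (limma p of 0.195) and 0.23 ± 0.13 for Dhcr7 (limma p of 0.104), and 0.03 and 0.05 less the median of all tested probes. After quantile normalization the changes were -0.03 ± 0.12 and -0.01 ± 0.10, with the sign turned in both genes.

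Insig1, the sterol sensor that restrains the pathway, gave the only probe at which no heroin rat overlapped a saline rat. Its brightest probe read 42.4, 43.9, 48.5, 48.2 and 41.9 array medians in saline rats 2 to 6, and 49.3, 59.9 and 78.0 as the lowest, median and highest of the heroin rats. Heroin rat 5 lay just above the saline rats and heroin rat 6 was the highest. The change was 0.44 ± 0.13 on the log2 scale, 1.35-fold, with a limma p of 0.00406 and an exact permutation p of 0.00433, and it fell short of the 1.4-fold threshold. Among all tested probes with a value in every rat, 1.45% had all heroin rats above all saline rats. After quantile normalization the change of Insig1 was 0.18 ± 0.10 with a limma p of 0.0844, and the groups overlapped.

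The other three Insig1 probes, brightest first, had changes of 0.37 ± 0.13, 0.38 ± 0.15 and 0.45 ± 0.13, with limma p of 0.0116, 0.0244 and 0.00376. The dimmest of them read 2.22, 2.17, 2.40, 3.12 and 2.40 array medians in saline rats 2 to 6, and 2.81, 3.41 and 3.75 as the lowest, median and highest of the heroin rats. Saline rat 5 alone reached into the heroin range at that probe. Its change was 0.28 ± 0.11 after quantile normalization (limma p of 0.0210), while that of the other two was 0.12 ± 0.10 and 0.14 ± 0.11. All 4 probes of the gene were thus higher in heroin rats on both scales, by 0.18 to 0.26 and by 0.11 to 0.27 less the median of all tested probes.

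**Figure D1:**
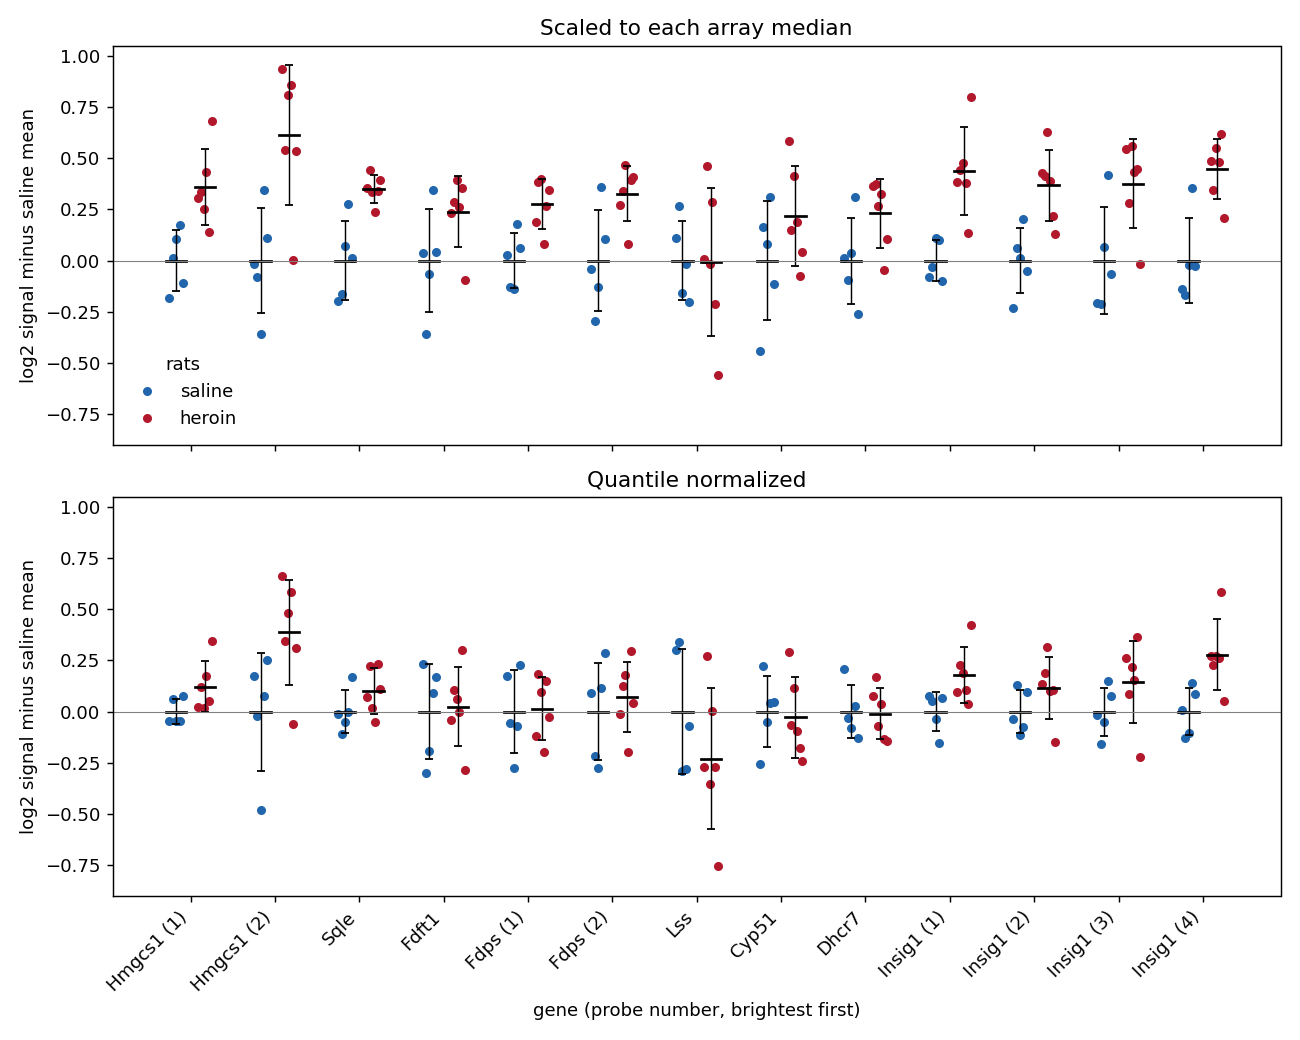
Log2 signal of the 13 probes of the 8 genes in each rat, less the mean of the saline rats (y axis), with probes on the x axis numbered brightest first within a gene. Points are rats (6 heroin, 5 saline), bars the group mean and whiskers 1 SD. In the upper panel (signals scaled to each array's median) 12 of 13 heroin means lie above 0, and in the lower panel (quantile normalized) 10 of 13 do, most of them closer to 0.

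With the brightest probe standing for each gene, none of the 8 genes passed both thresholds, and 1 of the 13 probes did, the second of Hmgcs1. At an unadjusted limma p under 0.05 the heroin rats were higher in 4 of the 8 genes, Hmgcs1, Sqle, Fdps and Insig1, against 15.7% of all tested probes, and 7 of 8 changes were above 0 against the 78.7% of all probes. After quantile normalization none of the 13 probes passed both thresholds, where 0.818% of all tested probes passed upwards. None of the 8 genes then had a limma p under 0.05, against 3.9% of all probes, and 5 of 8 changes were above 0 against 52.5%. Probe by probe, 9 of 13 had a limma p under 0.05 before and 2 of 13 after quantile normalization, the second Hmgcs1 probe and the dimmest Insig1 probe. The median change of the 8 genes was 0.26 beside 0.18 for all tested probes, and 0.02 beside 0.01 after quantile normalization.

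The level of the 8 genes is set beside that of all tested probes on each array. In the heroin rats their mean log2 signal lay between 4.69 and 4.93 and the median log2 signal of all tested probes between 1.72 and 1.96. In the saline rats the former lay between 4.48 and 4.78 and the latter between 1.5 and 1.90. Saline rat 5 was the highest of the saline rats in both, and heroin rat 5 the lowest of the heroin rats in both. Heroin rat 2 went the other way, with the highest mean of the 8 genes, 4.93, and a median over all tested probes of 1.81, the next to lowest of the heroin rats. Without saline rat 5 the count at a limma p under 0.05 was 6 of 8 genes, and without heroin rat 5 it was 5 of 8. Whether the array-wide difference came from the RNA, the labelling or the rats was not tested.

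**Figure D2:**
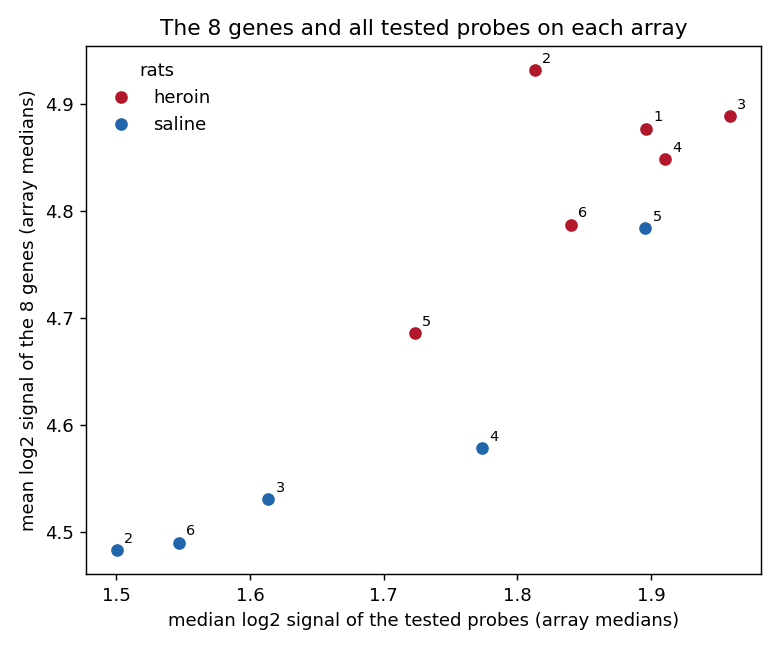
Mean log2 signal of the 8 genes (y axis, brightest probe of each) against the median log2 signal of all 25555 tested probes (x axis) on each of the 11 arrays, both in array medians, with rats numbered. Saline rats 2, 3 and 6 lie at the lower left, and saline rat 5 lies among the heroin rats at the upper right.

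The saline rat and the heroin rat of the same number, from 2 to 6, were recorded under the same scan time, and heroin rat 1 stood alone. All heroin arrays were at slide position 4 and all saline arrays at position 3, so position and group cannot be told apart. Within the 5 scans, the brightest Insig1 probe was higher in the heroin rat in 5 of 5, by 0.03 to 0.90 on the log2 scale, and also in 5 of 5 after quantile normalization, by 0.14 to 0.36. Sqle and both Fdps probes were likewise higher in 5 of 5 scans before and in 4 of 5 after quantile normalization. The second Hmgcs1 probe was higher in 4 of 5 scans, with differences from -0.34 to 1.22. Cyp51 and Dhcr7 were higher in 4 of 5 scans before and in 1 of 5 after quantile normalization. With the replicate block, which is the same as the scan, 1 of the 8 genes had a limma p under 0.05, Insig1 with a change of 0.45 and a p of 0.0222. Hmgcs1 then had a change of 0.37 with a limma p of 0.0519, Sqle one of 0.35 with a p of 0.0549 and Fdps one of 0.29 with a p of 0.0919, and the second Hmgcs1 probe was past both thresholds, with 0.55 and a p of 0.0189.

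The rest of the sterol synthesis pathway, 13 further enzymes all measured and tested, lay in the same range as the 8 genes. All 13 changes were above 0, against 78.7% of all tested probes, with a median of 0.29. Of the 13, 6 were higher at a limma p under 0.05, against 15.7% of all tested probes, and none passed both thresholds. The largest was Idi1, which isomerises the isoprenoid building block, with 0.43 ± 0.15 (limma p of 0.0142), and the smallest was Tm7sf2, a sterol reductase, with 0.09 ± 0.12. After quantile normalization the median was 0.08, 10 of 13 were above 0 against 52.5%, and 1 of 13 was higher at a limma p under 0.05 against 3.9%. Of the enzymes that take farnesyl diphosphate elsewhere, 4 of 6 were measured and tested. None had a limma p under 0.05, where 15.7% of all tested probes were higher. The changes of these 4 ran from -0.04 ± 0.17 in Dhdds, which makes dolichol, to 0.24 ± 0.14 in Ggps1, which makes the longer isoprenoid for prenylation. After quantile normalization 1 of the 4 was above 0 against 52.5%, with a median of -0.10.

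Among regulators that sense sterols, 7 of 8 were tested and all 7 changes were above 0, with a median of 0.18 and 2 at a limma p under 0.05, where all tested probes gave 78.7% and 15.7%. After quantile normalization 4 of 7 were above 0 against 52.5% of all tested probes. None was then higher at a limma p under 0.05, against 3.9%. The largest was that of Srebf1, the SREBP gene more tied to fatty acid synthesis, with 0.39 ± 0.19 (limma p of 0.0650), and the smallest that of the liver X receptor gene Nr1h2, with 0.13 ± 0.13. Among genes of sterol uptake, transport and turnover, 13 of 17 were tested, with a median of 0.11. Of these 13 changes, 10 were above 0, and 5 after quantile normalization, against 78.7% and 52.5% of all tested probes. None was higher at a limma p under 0.05, against 15.7% of all. The 1 lower gene, against 723 of the 25555 tested probes, was Lrp8, a receptor for reelin and for apolipoprotein E. Lrp8 was dim, at 1.72 array medians in saline rats. Its change was -0.33 ± 0.12 (limma p of 0.0189) and -0.41 after quantile normalization. The largest upward change of that list was Scarb1, a lipoprotein receptor, with 0.32 ± 0.15 (limma p of 0.0543). In fatty acid synthesis, which shares SREBP control, 8 of 10 genes were tested, all 8 changes were above 0 with a median of 0.30, and 5 had a limma p under 0.05, where all tested probes gave 78.7% and 15.7%. After quantile normalization 6 of 8 were above 0 against 52.5%, and 1 of 8, Fads2, had a limma p under 0.05 against 3.9%. The largest was the desaturase Fads2, with 0.44 ± 0.19 (limma p of 0.0378), and the smallest the desaturase Scd2, with 0.18 ± 0.14. After quantile normalization the medians of these 3 lists were 0.01, -0.09 and 0.06. No gene of any of these lists passed both thresholds.

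Marker genes of the cell types in the block were read on the same scales, because oligodendrocytes and astrocytes make much of the brain's sterol. All 6 tested oligodendrocyte markers had changes between -0.02 and 0.18, with a median of -0.00, and after quantile normalization all 6 were below 0 with a median of -0.25, none at a limma p under 0.05. Their mean log2 signal lay between 4.54 and 6.09 in the heroin rats and between 4.56 and 6.02 in the saline rats. Single rats of the same group thus differed widely in these markers. The 7 astrocyte markers had a median change of 0.21, the 6 tested neuron markers 0.24, the 4 tested microglia markers 0.20 and the 5 tested markers of endothelium and blood 0.10, each with no gene past both thresholds. After quantile normalization these medians were -0.05, 0.01, -0.04 and -0.15. At a limma p under 0.05, 1 of all these markers was higher, the neuron marker Gad1, with 0.38 ± 0.16 (limma p of 0.0328). All tested probes gave 15.7%. After quantile normalization none was higher at that threshold, against 3.9% of all tested probes. Of the neuron markers, Snap25 read 220 array medians and Slc17a7 2.08 in saline rats. Liver markers, from outside the block, were read beside these. Of 3 such markers, 2 were tested, with a median change of 0.22, and 0.04 after quantile normalization. The part of these markers in the changes of the 8 genes was not tested.

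**Figure D3:**
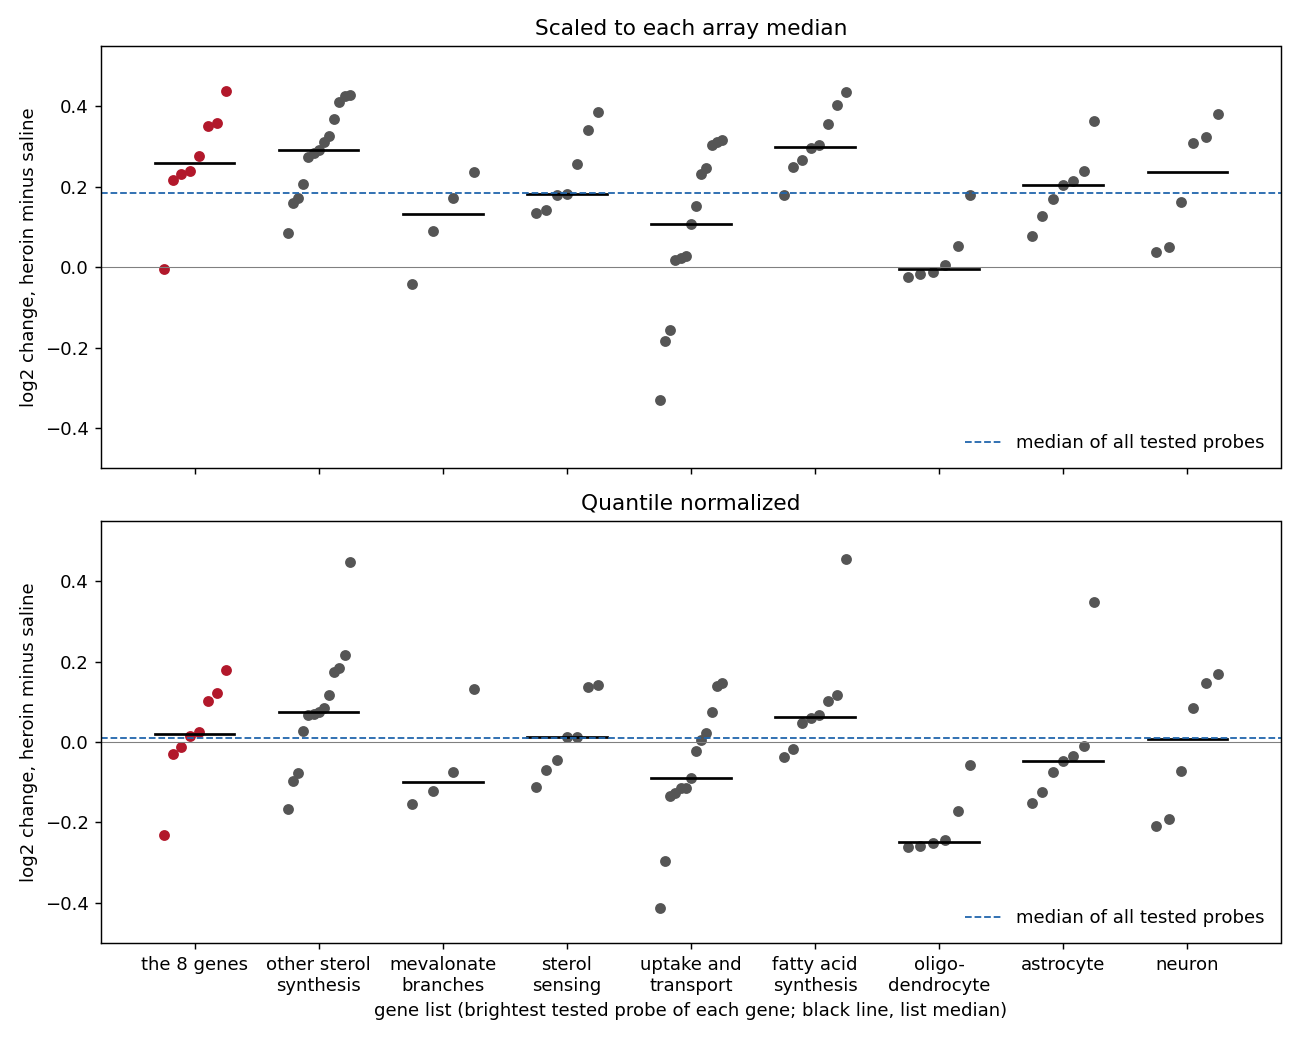
Log2 change, heroin minus saline (y axis), of the brightest tested probe of each gene, by gene list (x axis), for signals scaled to each array's median (upper panel) and quantile normalized (lower panel). Points are genes, black lines list medians and the dashed line the median of all tested probes. In the upper panel the 8 genes and 13 further sterol enzymes have medians of 0.26 and 0.29 beside the dashed line at 0.18, and in the lower panel 0.02 and 0.08 beside 0.01.

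Covariation was measured over the 11 rats after the mean of each group was removed, so that it does not carry the difference between groups. Over the 28 pairs of the 8 genes the median Pearson r was 0.28, with 21 pairs above 0, beside a median of 0.13 between tested probes at large. The jackknife SE of the 0.28, from leaving out each rat, was 0.21, which is more than its distance from 0.13. After quantile normalization the median was -0.02, with 13 pairs above 0, beside -0.00 between probes at large. Of the 28 pairs, 18 had the same sign on both scales. All pairs share the same 11 arrays.

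The closest pair was Hmgcs1 with Insig1, the synthase at the entry and the sensor that restrains it, read at their brightest probes. Pearson r was 0.88 (exact permutation p of 0.00350, 0.0979 after adjustment over the 28 pairs) and Spearman's rho 0.83 (exact permutation p of 0.00725, 0.203 adjusted). Without the 2 rats farthest from the median of Hmgcs1 r was 0.71. After quantile normalization r was 0.73 (exact permutation p of 0.0313, 0.317 adjusted) and rho was 0.65 (exact permutation p of 0.0336, 0.419 adjusted). Without the 2 farthest rats r on that scale was 0.29, so the relation there rested on those rats. The Insig1 probes further from the 3' end, brightest first, gave r of 0.04, -0.12 and -0.14 with the same Hmgcs1 probe, and -0.46, -0.79 and -0.54 after quantile normalization. The second Hmgcs1 probe gave r of 0.26 with the brightest Insig1 probe and 0.51, 0.35 and 0.21 with the others, and 0.13, 0.33, 0.08 and -0.09 after quantile normalization. Of the 8 probe pairs of these genes, that of the most 3' probe of each had the highest r on both scales.

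Among the other pairs, Sqle with Fdps had r of 0.55 (exact permutation p of 0.115) and 0.72 after quantile normalization (exact permutation p of 0.0201, 0.317 adjusted), and 0.54 and 0.56 without the 2 rats farthest from the median of Sqle. Lss with Dhcr7 had r of 0.47 and, after quantile normalization, 0.67 (exact permutation p of 0.0340, 0.317 adjusted). In all, 1 of 28 pairs had an unadjusted Pearson p under 0.05 by the exact permutation test before and 3 after quantile normalization, and no pair was under 0.05 after adjustment on either scale.

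Probes of the same gene show how well this measure repeats. The 2 Fdps probes followed each other closely across rats, with r of 0.89 and, after quantile normalization, 0.86. The Hmgcs1 probes did not, with 0.22 and 0.07. Of the 4 Insig1 probes, the 2 dimmest had r of 0.94 and 0.89 with each other, while the brightest had r from -0.31 to 0.04 with the other three, and from -0.85 to -0.22 after quantile normalization. Heroin rat 6 was the highest heroin rat at the brightest probe of Hmgcs1 and of Insig1 and the lowest at the other three Insig1 probes. Its array also had the lowest median signal of the 11, 42.7 intensity units against 58.0 to 83.2 on the saline arrays, and the part of that array in these relations was not tested.

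**Figure D4:**
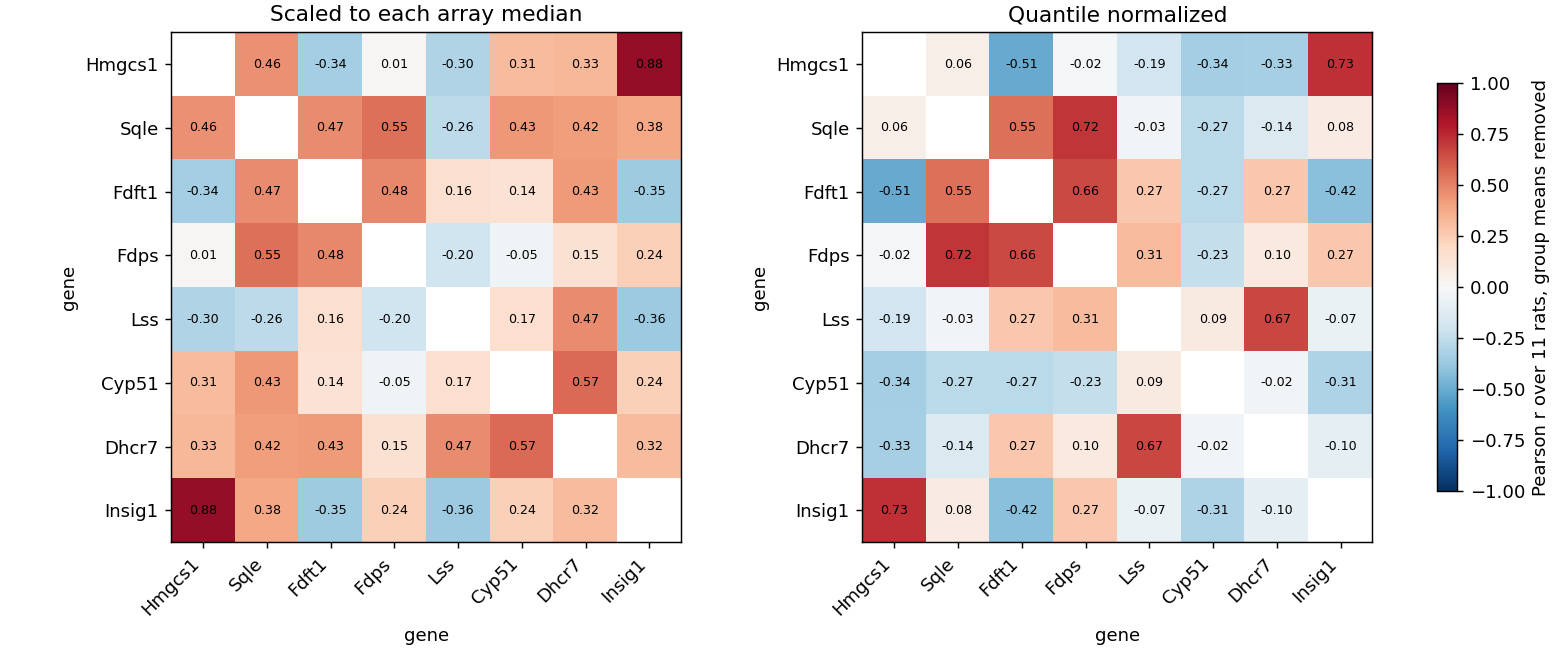
Pearson r between each pair of the 8 genes over 11 rats with group means removed (brightest probe of each gene on both axes, colour and printed value), for signals scaled to each array's median (left) and quantile normalized (right). On the left 21 of 28 pairs are above 0, on the right 13 of 28, and Hmgcs1 with Insig1 has the highest r on both, 0.88 and 0.73.

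Among all tested probes that carry a gene name, those that followed the mean of the 8 standardised genes most closely after quantile normalization were Dysf, Mgat4a, Sap18, Atp2c2, D123, Znhit2, Olr278, Tcam1, Cmas and Carf, with Pearson r from 0.94 to 0.91 over 11 rats. With scaling to the array median, r was 0.77 to 0.90 for Sap18, D123, Znhit2 and Cmas and -0.54 to -0.29 for the other six. None of the 10 is in the lists of sterol genes used here. They were picked as the highest of all tested probes with a gene name, so an r of this size is no evidence of a link. Among the genes that sense sterols, r after quantile normalization ran from -0.89 in Srebf1 to 0.65 in Scap. Scaled to the array median, r was 0.47 in Srebf1, with the sign turned, and 0.77 in Scap. The 13 further sterol enzymes had a median r of 0.25 with the mean of the 8 genes after quantile normalization. It was 0.28 for the 5 neuron markers with a value in every rat and 0.27 for sterol uptake and transport. Sterol sensing genes had 0.03, the other mevalonate branches 0.05 and fatty acid synthesis -0.17. Markers of oligodendrocytes had -0.23, astrocytes -0.21, microglia -0.03, endothelium and blood -0.26 and liver -0.23. The median percentile of these r among tested probes was 67.5 for the 13 enzymes, 69.7 for neuron markers and 34.3 for fatty acid synthesis. Scaled to array medians, r ran from 0.17 to 0.71 in fatty acid synthesis, 0.01 to 0.62 in astrocytes and 0.46 to 0.70 in microglia. It ran from 0.08 to 0.54 in endothelium and blood, 0.23 to 0.27 in liver and -0.06 to 0.08 in oligodendrocytes. Outside oligodendrocytes, r was then positive in every gene of these lists.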

How the data were processed

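RNA of the mPFC of 11 rats was hybridised, 1 array per rat. The authors deposited background-subtracted spot intensities from Feature Extraction 9.5.1.1 (per the file headers), not scaled between arrays, with flags for spots above background and for outlying spots. A further table deposited by the authors holds, for each probe, the ratio of its scaled signal to the gene's median, and it served here as an alternative. These processed values carry no depth, and the number of arrays limits the precision.

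Here, control and outlier-flagged spots were left out, a floor of 5 was applied to the intensities and log2 was taken. Spots of a probe were then averaged on the log2 scale, and the 50th percentile of each array was subtracted. The 25555 probes detected on all arrays with enough usable spots were fitted with limma 3.58.1 in R 4.3.3 (lmFit, eBayes), two-sided, with Benjamini-Hochberg adjustment over all of them. The brightest probe stood for a gene. Groups and replicate numbers came from the sample labels. Named genes were the 8 genes, the largest rise and fall of each list of sterol and fatty acid genes with any gene past both thresholds, and the 10 probes most correlated with the mean of the 8. The 8 genes and all lists were chosen with earlier results of these data known. Promoter windows were read from RefSeq sequence of build GRCr8. The fits were tested on simulated data. Alternatives were the 75th percentile, quantile normalization, normexp background (offset 50), scaling before the floor, the deposited ratios, flagged spots kept, 2 other detection filters, the methods' t-test run beside limma, array weights, a robust and trended eBayes, the replicate block, the mean of a gene's probes, and leaving out each rat. The count of genes at a p under 0.05 was added after seeing the data. Scan times were shared by the same-numbered rats, so slide and replicate blocks are 1 fit. The values of 1 gene of the lists are not reported here.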

Additional observations from a re-analysis of the deposited data

Results flagged for a closer look

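Of 26 groups of values, those of each probe of the 8 genes in the heroin and in the saline rats, Dixon's test marked 2, and about 1 in 20 such groups is marked by chance. The Fdft1 signal of heroin rat 6, 4.28 array medians, lay apart below the other 5 heroin rats, with a gap of 0.678 of the range on the log2 scale. The dimmest Insig1 probe in saline rat 5, at 3.12 array medians, lay apart above the other 4 saline rats, with a gap of 0.718 of the range. Heroin rat 6 had the lowest median signal of the arrays, and saline rat 5 the highest median over all tested probes among the saline rats.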

How the results depend on the processing

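No member passed both thresholds, except 1 with the mean of all probes of a gene (Hmgcs1, change of 0.49), and 0 to 1 without each rat in turn, the 1 being Insig1 without heroin rat 5 (0.50). Of the 13 probes, 1 passed, but 0 with the 75th percentile, 0 with quantile normalization and 3 with array weights (the second Hmgcs1 probe and 2 of Insig1), and 1 to 2 without each rat, with 2 without saline rat 5, heroin rat 5 or heroin rat 6. The count of genes at a limma p under 0.05, 4, was 0 with the 75th percentile, 0 with quantile normalization, 7 with array weights and 1 with the replicate block. Of all tested probes 694 passed both thresholds (457 up, 237 down), against 457 with quantile normalization (209 up, 248 down), 126 with normexp, 1560 with no detection filter, 1067 with detection in 1 group, 308 with the methods' t-test, 2446 with array weights, 805 with the replicate block, and 343 (without saline rat 2) to 2352 (without saline rat 5) without each rat. Among the other sterol and fatty acid genes 0 passed, against 1 with the 75th percentile (Lrp8, lower), 2 with array weights (Nsdhl and Sc5d), and 0 to 2 without each rat (Idi1 and Sc5d without saline rat 5, and 1 each without saline rat 3, saline rat 6 or heroin rat 6). The sign turned for Lss with array weights (0.063) and without single rats (-0.10 to 0.11), for Cyp51 with the 75th percentile (-0.00017) and quantile normalization (-0.029), and for Dhcr7 with quantile normalization (-0.011). The median r among the 8 genes was 0.0024 with the 75th percentile, -0.021 with quantile normalization, 0.52 with normexp, and 0.14 (without saline rat 5) to 0.40 without each rat. The causes were not tested. Deviations of same-numbered rats from their group means correlated at 0.38, -0.13, 0.35, 0.02 and -0.24, over 0.1 in 2 of 5 pairs, with array-median scaling, and at 0.37, -0.095, 0.34, 0.14 and -0.27, over 0.1 in 3 of 5, after quantile normalization. Of the rats, 1 and 2 on these scales correlated best with their own number. Since not every pair was over 0.1 on either scale, the replicate block stands for the shared scan.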
